A study of Mus musculus with 4 samples.

Results

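Drd3, Drd4 and Drd5 encode the dopamine receptors that are sparse in most of the brain, and they are 3 of the 19465 genes in the deposited spatial table. They were taken by gene symbol. Dopamine receptors fall into a D1-like class, which holds Drd1 and Drd5 and raises cyclic AMP through stimulatory G proteins, and a D2-like class, which holds Drd2, Drd3 and Drd4 and lowers it through inhibitory G proteins. Drd1 and Drd2 mark the spiny projection neurons that make up most of the striatum. Drd3 is known from the ventral striatum and the islands of Calleja, Drd4 from the cortex, and Drd5 from striatal cholinergic interneurons, thalamus and other areas outside the striatum.

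The data came from Visium CytAssist v2 assays of formalin-fixed, paraffin-embedded coronal brain sections trimmed to show the striatum. There were 2 wild-type mice and 2 mice heterozygous for Celsr3, a gene of the flamingo cadherins that guide growing axons, and none was treated. The labels give no age, sex, strain or design of the Celsr3 allele. The assay counts gene probes on a grid of barcoded spots, and each spot can hold several cells, so fewer expressing cells and less RNA per cell cannot be told apart.

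The 12602 spots fell into 4 barcode sets by the ending of the spot name. The ending matches no label, so which animal gave which set is unknown for all 4, and heterozygous mice were not compared with wild-type mice. The barcode marks a grid position, and 1613 of 4744 barcodes were used in all 4 sets. Values are therefore given for each set, with no replicate error and no test. Intervals are 95% intervals of counting error only, and a difference beyond them separates libraries, not genotypes. Sets 1 to 4 held 3055, 2808, 3445 and 3294 spots, with 90752475 to 174761560 counts per set and a median of 26444 to 52481 counts per spot. Celsr3 itself was at 26.0 to 47.2 counts per 1000000 counts (CPM) over the whole section.

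Areas were found by clustering spots on genes other than the dopamine genes. A cluster was named for a marker list when at least 1 gene of that list was among its 10 leading genes and 3 were at least 2-fold higher. A limit on the list median was also set. This gave 17 marker areas and 6 clusters known only by their 2 leading genes. The pallidum, layer 5 and layer 6 areas each had 1 list gene among the 10 leading genes. Marker areas are groups of spots and not traced anatomical regions. Striatal markers led 4 clusters, with 444 to 741 spots in each set. Several areas were unevenly spread over the sets: the thalamus marker area, led by Tcf7l2 and Gbx2, held 148 spots of set 1, 298 of set 4, 3 of set 3 and 0 of set 2. The lateral septum marker area held 138 and 124 spots of sets 2 and 3, 25 of set 1 and 0 of set 4. A cluster of 430 spots led by Myl4 and Hs3st2, with Fezf2 and Slc17a7 among its leading genes, was found in set 4 alone and is not counted among the cortex layer areas. An area is read only in sets with at least 30 of its spots.

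All 3 genes had few counts. Drd3 gave 297, 246, 252 and 240 counts in sets 1 to 4, Drd4 gave 180, 172, 162 and 218, and Drd5 gave 899, 311, 509 and 410. At least 1 Drd3 count was present in 7.69%, 7.34%, 6.47% and 6.04% of the spots of sets 1 to 4. Drd4 was present in 5.43%, 5.63%, 4.41% and 6.10%. Drd5 was present in 19.0%, 9.65%, 12.3% and 10.1%. Spots with a count were deeper than spots without one for Drd4 and Drd5 in all 4 sets, for example medians of 65728 against 51631 counts for Drd4 in set 1. With every spot thinned to 20000 counts, the shares were 3.55%, 4.44%, 3.75% and 4.64% for Drd3, 2.25%, 2.75%, 1.33% and 4.14% for Drd4, and 8.52%, 5.28%, 6.19% and 8.37% for Drd5. Thinning left out 38, 193, 135 and 857 shallower spots, and the order of the sets changed with it for Drd3 and Drd5.

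Over whole sections sets 1 to 4 had Drd3 at 1.70, 2.24, 1.53 and 2.64 CPM, with exact Poisson intervals of 1.51 to 1.90, 1.97 to 2.54, 1.34 to 1.73 and 2.32 to 3.001. Sets 2 and 4 lay above sets 1 and 3. Drd4 was at 1.03 CPM (0.885 to 1.19), 1.57 (1.34 to 1.82), 0.981 (0.836 to 1.14) and 2.40 (2.09 to 2.74) in the same order. Set 4 was highest and set 2 next, with sets 1 and 3 overlapping. Drd5 was at 5.14 CPM (4.81 to 5.49), 2.84 (2.53 to 3.17), 3.08 (2.82 to 3.36) and 4.52 (4.09 to 4.98), so that sets 1 and 4 were higher than sets 2 and 3. These are the sets with a thalamus marker area, and outside that area Drd5 was at 3.97 CPM in set 1 and 3.39 CPM in set 4.

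Genes of other organs were read in the same way, among them insulin, sperm and digestive enzyme genes. Over 24 of them the median level was 0.126, 0.401, 0.188 and 0.606 CPM in sets 1 to 4, and 20 to 21 of the 24 were under 1 CPM in each set. Krt10, a keratin gene, reached 27.7 to 45.1 CPM. Sftpc at 2.04 to 3.10 CPM, Ins2 at 0.875 to 2.09 CPM and Myh4 at 0.772 to 1.47 CPM also passed 1 CPM in at least 1 set. The median of this list was higher in sets 2 and 4, as were the section levels of Drd3 and Drd4, and its part in those 2 differences was not tested.

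Most counts stood alone in their spot, except for Drd5 in set 1. For Drd4, 85.3% to 88.9% of the counts of a set came from spots with a single count, and the highest spot held 3 or 4. For Drd3 the share was 66.7% to 79.4%, and the highest spots held 7, 4, 4 and 5 counts in sets 1 to 4. For Drd5, the gene with the most counts, 45.8% of the counts of set 1 were single and its highest spot held 14, whereas in the other sets 65.4% to 75.6% were single. The 5 highest spots of a set held 4.15% to 8.75% of the counts of any of the 3 genes, so no level rested on a handful of spots.

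The 3 genes divided differently over cortex, striatum and the rest of the section. The cortex layer marker areas held 32.5%, 40.5%, 40.2% and 14.7% of all counts of sets 1 to 4. They held 3.70%, 6.91%, 3.97% and 3.75% of the Drd3 counts, a level 0.0615 to 0.227 times that of all other spots. Of the Drd4 counts they held 43.3%, 50.6%, 48.1% and 27.1%, a level 1.38 to 2.16 times that of other spots, with intervals above 1 in all 4 sets. Of the Drd5 counts they held 21.2%, 25.1%, 22.4% and 2.93%. In set 4 the cortex layer areas leave out the Myl4 and Hs3st2-led cluster and hold only 7 layer 5 and 20 layer 6 spots. That cluster held 7 Drd3, 31 Drd4 and 49 Drd5 counts, beside 9, 59 and 12 in the cortex layer areas of set 4. The cortical shares and ratios of set 4 are therefore not comparable with those of the other sets. The striatum and ventral striatum marker areas together held 17.8%, 55.3%, 24.6% and 10.0% of the Drd3 counts against 19.0%, 26.1%, 20.7% and 13.9% of all counts. The Drd3 level of these areas was above that of other spots beyond counting error in set 2, at a ratio of 3.49 (2.70 to 4.53), and in set 3 the ratio was 1.25 (0.921 to 1.67). They leave out a cluster led by Hist1h3b and Crym, which had no marker area name, although Crym and Pdyn among its leading genes are on the ventral striatum list and Drd1 was 3.003 to 4.86 times as high there as in other spots of sets 1 to 3. With that cluster added, the share of Drd3 counts was 23.6%, 58.1%, 29.4% and 10.0% against 20.8%, 27.2%, 22.7% and 14.5% of all counts, and the level ratio was above 1 beyond counting error in sets 2 and 3, at 3.71 (2.86 to 4.82) and 1.42 (1.06 to 1.87).

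**Figure D1:**
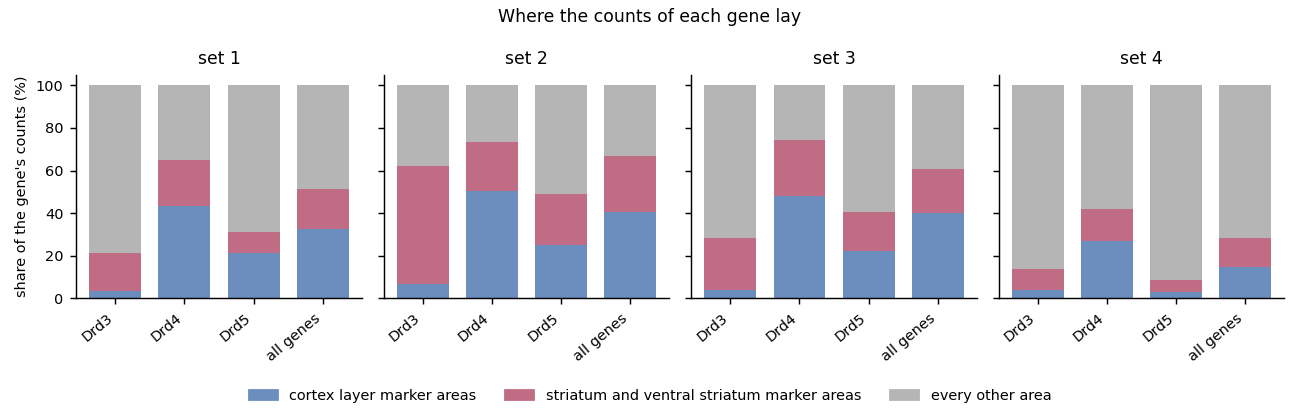
Stacked bars of the share (%) of the counts of Drd3, Drd4, Drd5 and all genes that lay in the cortex layer marker areas, the striatum and ventral striatum marker areas, and every other area, 1 panel per barcode set. Drd3 had 3.70% to 6.91% of its counts in the cortex layer areas, and in set 2 it had 55.3% in the striatal areas.

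Drd3 was highest in the ventral striatum marker area of set 2 and in areas outside the striatum in the other sets. The ventral striatum marker area was led by Pdyn, which encodes prodynorphin, and Wfs1, which encodes wolframin. Of the 8 genes of its list, 3 were at least 2-fold higher there, and the list median log2 fold was 0.54, near the limit of 0.5. Otof, on the layer 2/3 list, was also among its leading genes. In sets 1 to 4 its Drd3 level was 4.70, 14.5, 4.87 and 3.17 CPM, with intervals of 2.98 to 7.06, 11.7 to 17.8, 2.97 to 7.52 and 1.16 to 6.89. These levels were 2.92, 9.61, 3.38 and 1.2 times those of all other spots of the same set. The interval of the ratio lay above 1 in sets 1, 2 and 3, and in set 4, with 6 counts in 80 spots, it ran from 0.437 to 2.66. In the main striatum marker area, with Scn4b and Pde10a among its leading genes, Drd3 was at 1.06, 2.05, 1.39 and 1.68 CPM, which is 0.582, 0.894, 0.896 and 0.605 times the other spots, with intervals below 1 in sets 1 and 4. No ventral striatum marker area was found with clustering at resolution 0.4 or when set 2 or set 4 was left out of the clustering.

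In the thalamus marker area 82 Drd3 counts in the 148 spots of set 1 gave 6.35 CPM (5.05 to 7.88), and 67 counts in the 298 spots of set 4 gave 6.23 CPM (4.83 to 7.91). These levels were 4.78 and 2.88 times those of other spots, and 2.98% of the 13709 genes tested were at least 2-fold higher there in both sets. The pallidum marker area, led by Spp1 and Etnppl with Nkx2-1, gave 3.31, 7.45 and 5.36 CPM in sets 1, 3 and 4, and each was at least 2-fold above other spots, as were 3.03% of genes. The cluster led by Hist1h3b and Crym gave 5.29, 5.73 and 3.69 CPM in sets 1, 2 and 3, at ratios of 2.49 to 3.24 where 2.18% of genes reached 2-fold in all 3 sets. In the cholinergic marker area, led by Ngfr, Tac2, Lhx8 and Slc18a3, Drd3 was at 4.14, 4.55, 7.16 and 3.50 CPM, and its ratio was above 1 beyond counting error in sets 1 to 3.

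Every cortical layer area was low in Drd3. The layer 2/3 marker area held 3, 4, 1 and 3 Drd3 counts in sets 1 to 4, or 0.0901 to 0.527 CPM, which is 0.0553 to 0.189 times the level of other spots. At least 2-fold lower levels in all 4 sets were seen for 6.19% of genes in this area. The layer 4 marker area gave 0.139 to 0.739 CPM, and there 6.39% of genes were at least 2-fold lower in all 4 sets. In sets 1 to 3, layer 5 gave 0 to 0.247 CPM and layer 6 gave 0.106 to 0.738 CPM, both below other spots beyond counting error in each set. Layer 6b gave 0 to 1.39 CPM from 4 counts in all, below other spots beyond counting error in sets 1 to 3.

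Spots with 3 or more Drd3 counts were in different areas in different sets. In set 1, 9 of 11 such spots lay in the thalamus marker area, and the highest held 7 counts. In set 2, all 6 lay in the ventral striatum marker area. In set 3, 3 lay in the cholinergic area and 2 in the Hist1h3b and Crym-led cluster. In set 4, 4 of 7 lay in a cluster led by Pmch and Lhx5 and 3 in the thalamus marker area. The cut of 3 counts is not corrected for depth. In set 1, thalamus area spots had medians of 79724 counts with and 83097 without Drd3, against 52481 over the set. The spot with 7 Drd3 counts held 199709 counts in all, or 35.1 CPM. A hypothalamus area spot of set 1 with 3 was at 62.4 CPM.

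**Figure D2:**
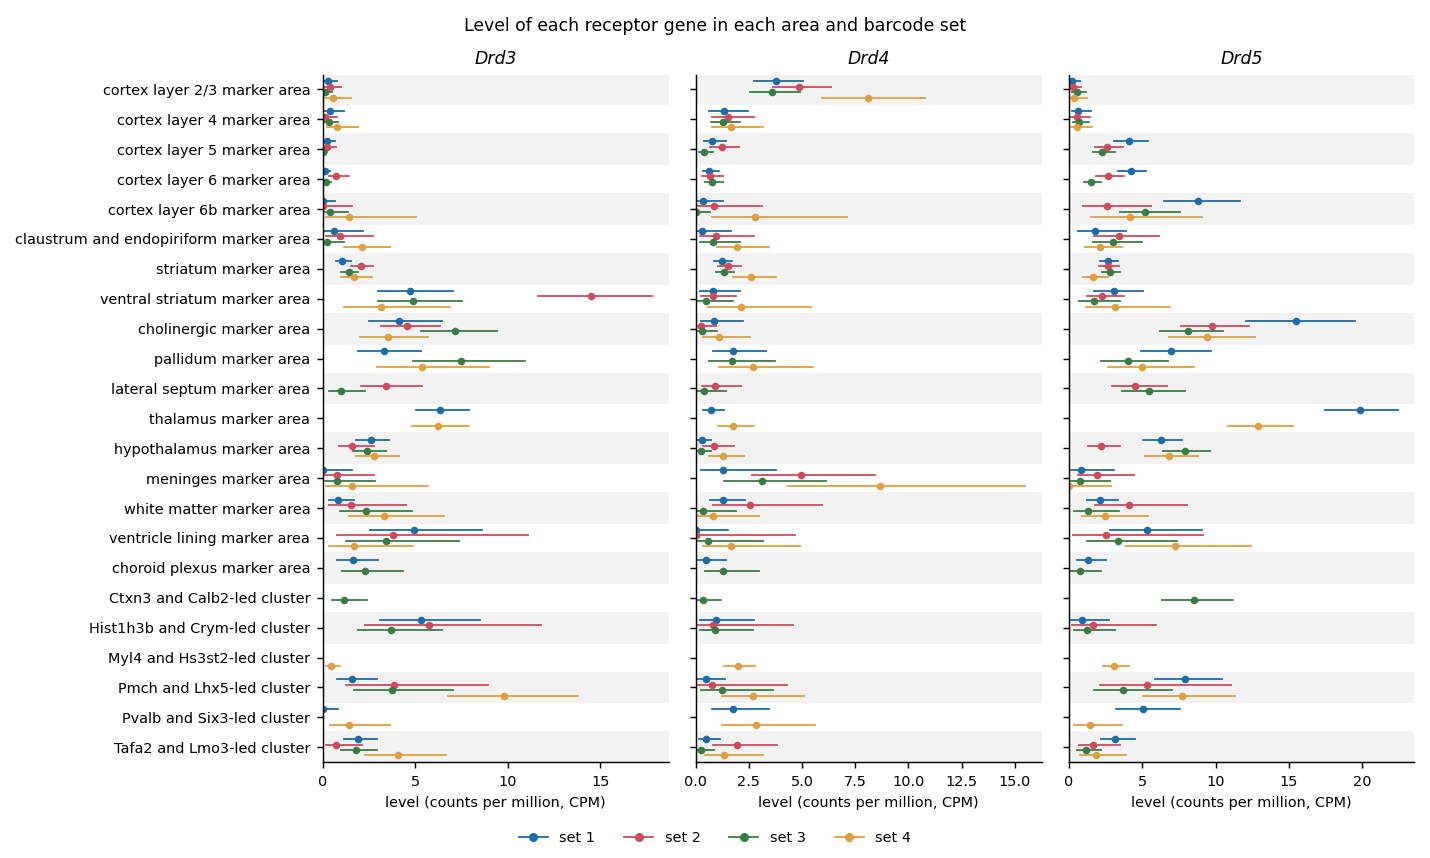
Level of Drd3, Drd4 and Drd5 (CPM, x axis) in each marker area or cluster (y axis) with at least 30 spots in a set, as 1 point per barcode set with its exact 95% Poisson interval. Drd4 peaks in the layer 2/3 marker area in all 4 sets apart from the meninges points of sets 2 and 4, Drd5 is near 0 in layers 2/3 and 4, and the Drd3 point of set 2 in the ventral striatum area stands at 14.5 CPM.

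In the whole section no gene was at least 2-fold richer in spots with a Drd3 count than in spots without one in all 4 sets (0% of 10175 genes of at least 10 CPM). Ratios here are of CPM + 10, which understates changes of low genes. The genes with the largest lowest ratio were Tunar (log2 ratios 1.12, 0.62, 0.60 and 0.84 in sets 1 to 4), Zcchc12 (1.38, 0.58, 0.90 and 1.09) and Nrsn2 (0.70, 0.58, 0.66 and 0.60). The serotonin receptor gene Htr2c followed at 0.93, 0.62, 1.07 and 0.49, and Ache, which encodes acetylcholinesterase, at 0.53, 0.47, 0.67 and 0.46. Slc17a7, the vesicular glutamate transporter of cortical projection neurons, was among the poorest at -2.39, -1.66, -1.93 and -1.18.

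Within the thalamus marker area 27 of 9944 genes (0.272%) were at least 2-fold richer in Drd3 spots in both sets with the area, over 45 spots with a count in set 1 and 50 in set 4. With clustering at resolution 1.2, 4 genes passed, all among the 27. Cadps2, which encodes a protein that primes dense-core vesicles for release, was at 221 CPM with and 25.3 CPM without Drd3 in set 1, and at 94.0 and 29.8 CPM in set 4. The synaptotagmin gene Syt10 was at 175 and 29.98 CPM in set 1 and at 148 and 48.7 CPM in set 4. Oxt, the oxytocin gene, was also richer, at 131 and 44.9 CPM in set 1 and at 132 and 25.7 CPM in set 4. Gda, Baiap3, Hpcal1, Tmem255a and Caln1 were also among the 10 richest genes, with log2 ratios of 1.28 to 2.19. Pvalb, the parvalbumin gene, was at 11.99 CPM with and 54.5 CPM without Drd3 in set 1, and at 26.6 and 101 CPM in set 4.

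Some of these genes are hypothalamus markers of the lists used here, Oxt and Baiap3 among them. The 9 genes of the hypothalamus list together were at 1989 CPM in thalamus area spots with Drd3 and 871 CPM in those without in set 1, a ratio of 2.28 (2.21 to 2.36). In set 4 they were at 2121 and 1081 CPM, a ratio of 1.96 (1.89 to 2.04). With 2 or more Drd3 counts the ratios were 3.08 and 2.22, over 14 and 13 spots. Other lists moved in the same comparison. Of the 9 white matter list genes, 0 had a log2 ratio above 0 in both sets and 3 were at least 2-fold poorer with Drd3 in both, with a list median of -1.02. The measured genes of the ventral striatum, claustrum and layer 6 lists had medians of 0.58, 0.63 and 0.57, beside 0.26 for the thalamus list. The part of white matter or of neighbouring hypothalamic spots in this pattern was not tested.

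**Figure D3:**
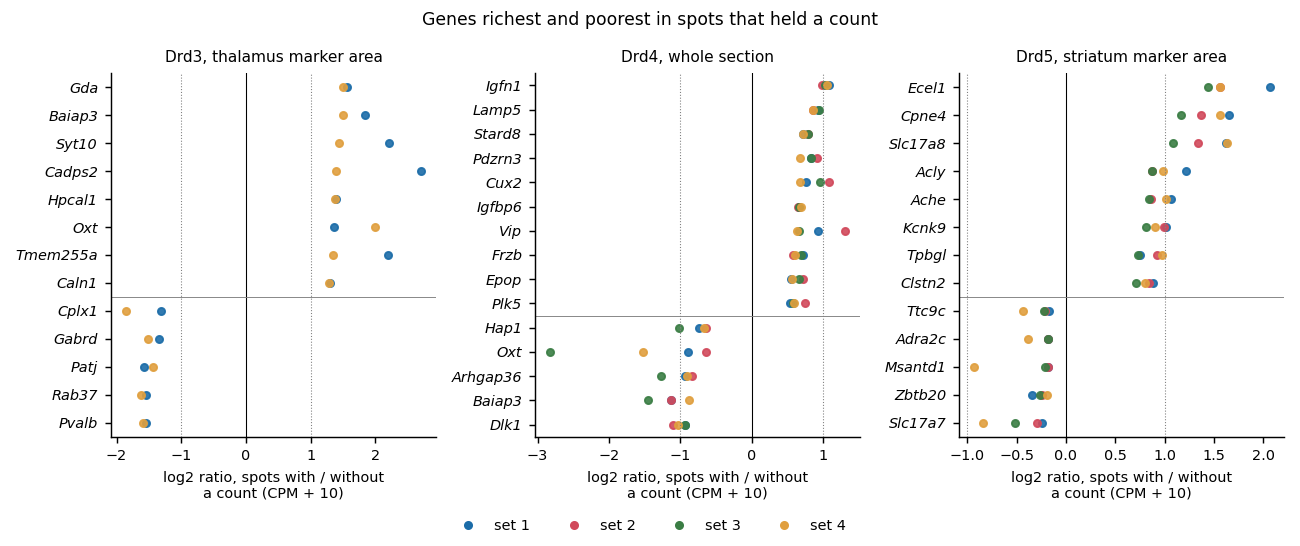
Genes among the 10 richest (above the line) and the 5 poorest (below it) in spots with a count against spots without, as log2 ratios of CPM + 10 with 1 point per barcode set, for Drd3 in the thalamus marker area, Drd4 over the whole section and Drd5 in the striatum marker area. Dotted lines mark 2-fold. All sets shown lie on the same side of 0 for each gene, with Igfn1 leading for Drd4 and Ecel1 for Drd5.

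Spots of the ventral striatum marker area with Drd3 were compared with the other spots of that area over 3 sets, not 2 as for the thalamus area. In sets 1, 2 and 3, which had at least 10 spots with a count there, 0 of 9920 genes (0%) were 2-fold richer in all 3. Taken singly, these sets gave 0, 16 and 7 such genes over 21, 64 and 16 Drd3 spots. The thalamus area gave 81 and 34 in sets 1 and 4, over 45 and 50 Drd3 spots. Mdga1, a cell adhesion gene, had log2 ratios of 0.54, 0.75 and 0.76, and the transcription factor gene Sox1 had 0.67, 0.99 and 0.54. The 4 genes listed for the islands of Calleja, Folh1, Rxfp1, Cpne4 and Tshz1, were summed. They were at 95.9 CPM with and 74.7 CPM without Drd3 in set 1 (ratio 1.28, 1.00 to 1.63), at 244 and 148 CPM in set 2 (1.64, 1.46 to 1.85) and at 127 and 89.9 CPM in set 3 (1.41, 1.09 to 1.81). In set 4 the order was the opposite, at 47.3 and 165 CPM over 6 spots with Drd3 (0.287, 0.114 to 0.600). In spots with 2 or more counts the ratio was 1.91 in set 2 and 2.12 in set 3, over 18 and 4 spots.

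Set 2, which had the high Drd3 level in this area, had 64 Drd3 spots there, and 16 of 9733 genes were at least 2-fold richer in them. The leading genes, chosen after their values were seen, were Otof at 161 and 49.1 CPM, the semaphorin receptor gene Nrp2 at 189 and 66.9 CPM, Gpr26 at 308 and 115 CPM and Cux2 at 109 and 36.9 CPM. Otof, Cux2 and Rasgrf2, another of the 10 richest, are on the layer 2/3 list, and Cpne4 of the islands of Calleja list was at 93.6 and 40.5 CPM.

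Drd4 was at its highest cortical level in layer 2/3, although most of its counts lay elsewhere. In the layer 2/3 marker area, whose clusters were led by Cux2, Igfn1, Stard8 and Lamp5, Drd4 was at 3.75, 4.85, 3.60 and 8.08 CPM in sets 1 to 4, from 44, 51, 40 and 46 counts. The intervals were 2.73 to 5.03, 3.61 to 6.38, 2.57 to 4.91 and 5.91 to 10.8, so set 4 lay above sets 1 and 3. The ratio to all other spots was 4.50, 3.97, 4.55 and 3.99, with intervals that overlapped, although sets 1 and 4 each formed this area from a cluster of their own. In this area 1.35% of genes were at least 2-fold higher in all 4 sets, and Drd4 was one of them. The area held 24.4%, 29.7%, 24.7% and 21.1% of all Drd4 counts and 6.71%, 9.59%, 6.72% and 6.28% of the counts of all genes. Of the 9 spots with 3 or more Drd4 counts, 7 lay there. This cut is not corrected for depth. In set 1, layer 2/3 area spots without Drd4 had a median of 76931 counts, against 51631 over the section.

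The layers below were lower. Drd4 was at 1.28 to 1.66 CPM in the layer 4 marker area, at 0.393 to 1.24 CPM in layer 5 and at 0.634 to 0.765 CPM in layer 6, where layers 5 and 6 were read in sets 1 to 3. The layer 4 interval of the ratio held 1 in all 4 sets. In the striatum marker area Drd4 was at 1.24, 1.52, 1.33 and 2.61 CPM, and its ratio to other spots was 1.25, 0.957, 1.47 and 1.10. The interval was above 1 in set 3 alone, where it began at 1.00. The hypothalamus marker area was low at 0.240 to 1.27 CPM, below other spots beyond counting error in 3 of 4 sets.

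The meninges marker area, led by Ptgds, Fmod and Col1a2, was the other place with a raised Drd4 level. It gave 1.29, 4.94, 3.11 and 8.65 CPM in sets 1 to 4 from 3, 13, 8 and 11 counts, above other spots in sets 2, 3 and 4 at ratios of 3.32, 3.29 and 3.74. Spots at the brain surface can hold both meninges and upper cortex. In meninges area spots with a Drd4 count, the layer 2/3 list summed to 1845, 1094 and 1558 CPM in sets 2, 3 and 4, against 1515, 924 and 1301 CPM in those without, ratios of 1.22, 1.18 and 1.198. In set 1, with 3 Drd4 spots, the ratio was 0.888, with an interval that held 1. The part of upper cortex in the meninges value was not tested.

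Over the whole section, the genes richest in Drd4 spots included genes of the upper cortical layers. Igfn1 was at 35.1 CPM with and 11.2 CPM without Drd4 in set 1, at 52.8 and 21.6 CPM in set 2, at 53.5 and 21.0 CPM in set 3 and at 43.1 and 15.5 CPM in set 4. Its log2 ratio was 1.09, 0.99, 1.03 and 1.06, so it missed 2-fold in set 2 alone and 0 of 10175 genes (0%) passed in all 4 sets. Lamp5 followed at 0.93, 0.86, 0.94 and 0.86, and Stard8 at 0.72, 0.79, 0.79 and 0.72. Cux2, a transcription factor of upper-layer neurons, was at 0.76, 1.09, 0.96 and 0.68. Vip, which encodes a neuropeptide of cortical interneurons, was at 0.94, 1.32, 0.66 and 0.64. The others among the 10 were Pdzrn3, Igfbp6, Frzb, Epop and Plk5. All 5 layer 2/3 list genes of at least 10 CPM had a log2 ratio above 0 in each set, as did 15.5% of the 10175 genes, and 0 of the 5 reached 2-fold in all 4 sets. Their median log2 ratio was 0.76, beside 8 hypothalamus list genes with a median of -0.86. The poorest genes were Dlk1, Baiap3, Arhgap36, Oxt and Hap1.

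Inside the layer 2/3 marker area no gene set Drd4 spots apart by 2-fold. None of 9725 genes passed in all 4 sets (0%), over 36 to 42 spots with a count in each set. Nptx2, an immediate early gene that encodes neuronal pentraxin, led at log2 ratios of 0.36, 0.36, 0.53 and 0.23, ahead of Tafa1 at 0.21 to 0.27. The layer 2/3 list was 0.992 to 1.15 times as high in Drd4 spots as in the other spots of the area.

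Outside the cortex layer and striatal areas lay 68.6%, 51.1%, 59.5% and 91.2% of the Drd5 counts of sets 1 to 4, against 48.5%, 33.4%, 39.1% and 71.4% of all counts. The level there was 2.08 to 4.15 times that of the rest of the section, with intervals above 1 in all 4 sets. In set 4 this remainder includes the Myl4 and Hs3st2-led cluster. In the thalamus marker area 256 counts in set 1 gave 19.8 CPM (17.5 to 22.4), and 139 counts in set 4 gave 12.9 CPM (10.9 to 15.3). These levels were 4.99 and 3.81 times those of other spots, both past 2-fold as for 2.98% of genes. The area held 28.5% of the Drd5 counts of set 1 and 33.9% of those of set 4. Of the 70 spots of set 1 with 3 or more Drd5 counts 37 lay there, with a highest count of 14, and in set 4 it was 9 of 12 such spots. That cut is not corrected for depth. Without Drd5, thalamus area spots had medians of 83537 and 33079 counts in sets 1 and 4, against 50406 and 25865 over the section.

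The cholinergic marker area was above other spots in every set. Drd5 was at 15.5, 9.77, 8.15 and 9.40 CPM there, from 71, 73, 58 and 43 counts, with intervals of 12.1 to 19.5, 7.66 to 12.3, 6.19 to 10.5 and 6.81 to 12.7. These were 3.18, 4.196, 2.86 and 2.21 times the levels of other spots, and 0.890% of genes were 2-fold higher there in all 4 sets. Chat, Slc18a3, Slc5a7 and Lhx8 are on the list that names this area, which covers genes of acetylcholine synthesis, packaging and choline uptake. In the hypothalamus marker area Drd5 was at 6.28, 2.22, 7.92 and 6.83 CPM, above other spots in sets 3 and 4 (2.95- and 1.60-fold) and not beyond counting error in sets 1 and 2. The area pools 3 clusters that the sets fill unevenly. The cluster led by Avp, the vasopressin gene, was at 6.69, 16.8 and 10.3 CPM in sets 1, 3 and 4 and held 0 spots of set 2, of whose 216 spots 179 lay in a cluster led by Oxt at 2.49 CPM. The third, led by Baiap3, ran from 0.786 to 4.73 CPM.

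Cortical layers differed in Drd5. In layers 2/3 it was at 0.256, 0.285, 0.540 and 0.351 CPM from 2 to 6 counts per set, 0.0465 to 0.166 times the level of other spots. In layer 4 it was at 0.555 to 0.719 CPM. Deeper layers were higher, with 2.30 to 4.13 CPM in layer 5 and 1.53 to 4.23 CPM in layer 6 in sets 1 to 3. In the layer 6b marker area, led by Ccn2 and Cplx3, the levels were 8.81, 2.58, 5.23 and 4.16 CPM, with ratios of 1.75 and 1.74 above 1 in sets 1 and 3 and ratios of 0.910 and 0.920 with intervals holding 1 in sets 2 and 4. The Drd5 interval of layer 2/3 lay below that of layer 6b in all 4 sets. The margin was least in set 2, where the one ended at 0.834 CPM and the other began at 0.948 CPM.

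In the striatum marker area as a whole, Drd5 was at 2.69, 2.67, 2.82 and 1.68 CPM, which is 0.478, 0.929, 0.898 and 0.343 times other spots, below 1 beyond counting error in sets 1 and 4. Different clusters make up this area in different sets. In set 4, 290 of its spots lay in a cluster found almost only there, at 0.412 CPM from 3 counts, while its 41 and 104 spots in the 2 clusters that held most striatal spots of sets 1 and 3 were at 7.13 and 3.53 CPM. In set 2, 510 spots lay in a cluster mostly of that set, at 2.86 CPM. Striatal spots that held a Drd5 count differed from the other striatal spots. In 55, 57, 79 and 15 striatal spots with Drd5 in sets 1 to 4, 5 of 9683 genes (0.0516%) were at least 2-fold richer than in striatal spots without it in all 4 sets. Ecel1, Cpne4 and Slc17a8 were among them.

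Ecel1, which encodes a neuronal peptidase, was at 170 CPM with and 32.9 CPM without Drd5 in set 1, at 204 and 62.5 CPM in set 2, at 150 and 48.8 CPM in set 3 and at 150 and 44.2 CPM in set 4. Slc17a8, the vesicular glutamate transporter gene of striatal cholinergic interneurons, was at 45.7 and 8.10 CPM, 54.8 and 15.7 CPM, 32.7 and 10.2 CPM, and 60.5 and 12.8 CPM. The copine gene Cpne4 had log2 ratios of 1.65, 1.37, 1.17 and 1.56. Below 2-fold in at least 1 set were Acly, whose product makes acetyl-CoA, at 1.22, 0.87, 0.87 and 0.98, and Ache at 1.06, 0.86, 0.84 and 1.02. Kcnk9, Tpbgl and Clstn2 were also among the 10 richest.

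Chat, Slc18a3, Lhx8 and Slc5a7 of the cholinergic list had log2 ratios above 0 in all 4 sets, and none of them reached 2-fold in all 4. Chat, which encodes the enzyme of acetylcholine synthesis, was at 68.5 CPM with and 9.44 CPM without Drd5 in set 1, at 53.4 and 16.3 CPM in set 2, at 37.4 and 12.01 CPM in set 3 and at 26.3 and 12.6 CPM in set 4. Slc18a3, the vesicular acetylcholine transporter gene, had log2 ratios of 1.79, 1.35, 1.11 and 0.66. Lhx8, a transcription factor gene of forebrain cholinergic neurons, had 0.99, 0.74, 0.66 and 1.27. The choline transporter gene Slc5a7 had 1.73, 0.42, 1.198 and 0.33. Of the 6 list genes, 4 had at least 10 CPM, and these are not the same 4 as those named above. All 4 genes of at least 10 CPM had log2 ratios above 0 in every set, as did 7.89% of all 9683 genes. Their median log2 ratio was 1.18. The 1 of them that reached 2-fold in every set is not reported here.

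Summed, the 6 cholinergic list genes were at 233 CPM in striatal spots with Drd5 and 41.5 CPM in those without in set 1, a ratio of 5.62 (5.10 to 6.20). In set 2 they were at 204 and 68.2 CPM (3.001, 2.69 to 3.34), in set 3 at 169 and 55.9 CPM (3.03, 2.75 to 3.33) and in set 4 at 131 and 51.9 CPM (2.53, 1.86 to 3.39). With 2 or more Drd5 counts the ratios were 11.6, 5.24, 4.89 and 6.84, over 11, 3, 6 and 3 spots. Drd3 and Drd4 spots of the same area had ratios on both sides of 1, at 0.612, 0.972, 1.26 and 0.712 for Drd3 and 0.959, 0.824, 1.04 and 0.420 for Drd4. In every set the interval for Drd5 lay above the intervals for both other genes.

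**Figure D4:**
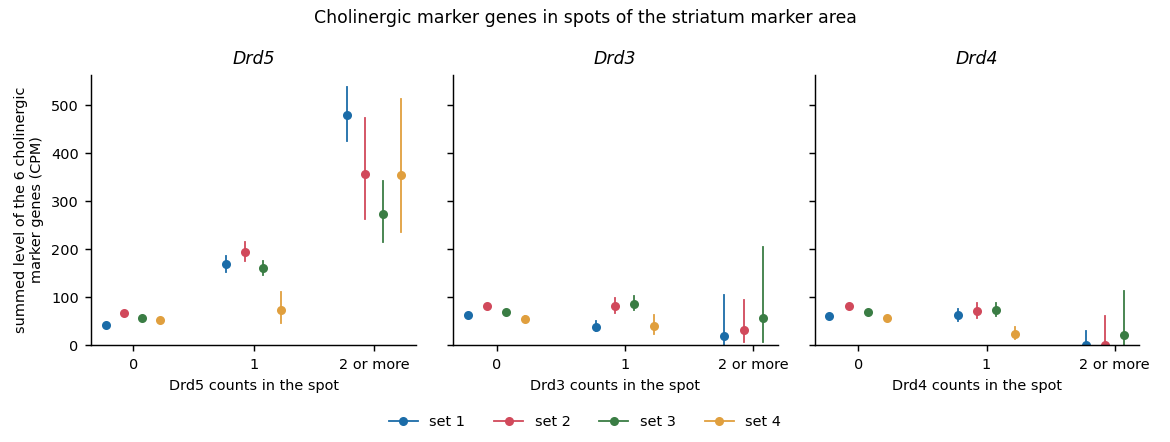
Summed level (CPM) of 6 cholinergic marker genes in spots of the striatum marker area with 0, 1, or 2 or more counts of Drd5, Drd3 or Drd4, 1 point per barcode set with its exact 95% Poisson interval. In set 1 the level is 41.5 CPM without Drd5 and 480 CPM with 2 or more Drd5 counts, and no such step is seen for Drd3 or Drd4.

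Striatal spots were also split by Chat, Slc18a3 or Slc5a7. Drd5 was at 6.6 CPM in the 184 striatal spots of set 1 with a Chat count and 0.646 CPM in the 389 without, a ratio of 10.2 (5.47 to 20.8). In sets 2, 3 and 4 it was at 5.49 against 1.05 CPM, 5.28 against 1.49 CPM and 4.33 against 1.04 CPM, ratios of 5.22, 3.55 and 4.16 with intervals above 1. Between 9 and 64 of the Drd5 counts per set lay in these Chat spots. Split by Slc18a3, the Drd5 ratios were 7.03, 3.66, 2.92 and 3.33 with intervals above 1. Split by Slc5a7 they were 9.27, 2.82, 2.75 and 3.71, and the interval of set 4, with 3 Drd5 counts in 21 spots, held 1 (0.688 to 13.1). For Drd3 and Drd4 the ratios with Chat ran from 0.499 to 1.67, and all 8 intervals held 1. These splits use the same spots and counts as the one by Drd5 and are not a separate line of evidence. With areas drawn by a per-spot marker score, in which spots high in cholinergic markers leave the striatum area, 1 of the 5 genes still passed 2-fold in all 4 sets.

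In the cholinergic marker area itself the same list was 1.31, 1.10, 1.73 and 1.26 times as high in Drd5 spots as in the others, with intervals above 1 in all 4 sets. For Drd3 spots of that area the ratio was 1.55 and 1.87 in sets 1 and 3, 0.826 in set 2 and 0.938 in set 4, so its direction was not shared.

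In the thalamus marker area, Htr2c and Prkcd, the protein kinase C delta gene, were the genes at least 2-fold richer with Drd5 in both sets, 2 of 9943 genes (0.0201%). Of the 10 genes richest with Drd5, 0 were among the 10 richest with Drd3. With areas from a per-spot marker score 0 genes passed for Drd5. Htr2c was at 192 CPM with and 49.7 CPM without Drd5 in set 1, and at 156 and 69.5 CPM in set 4. Prkcd was at 162 and 72.4 CPM and at 187 and 88.0 CPM. Prkcd went the other way with Drd3, at log2 ratios of -0.53 and -0.92, and Oxt went the other way with Drd5, at -2.96 and -1.03. The 10 genes richest with Drd3 had a median log2 ratio of 0.44 in set 1 and -0.26 in set 4 in Drd5 spots, and 9 and 2 of the 10 were above 0. The 10 genes richest with Drd5 had medians of 0.55 and 0.37 in Drd3 spots, and 7 and 6 of the 10 were above 0. The hypothalamus list was 1.16 and 0.973 times as high in Drd5 spots. Drd5 was at 21.0 CPM in thalamus spots with Drd3 and 19.2 CPM in those without in set 1, and at 12.2 and 13.1 CPM in set 4. Both ratios, 1.09 and 0.931, had intervals that held 1.

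**Figure D5:**
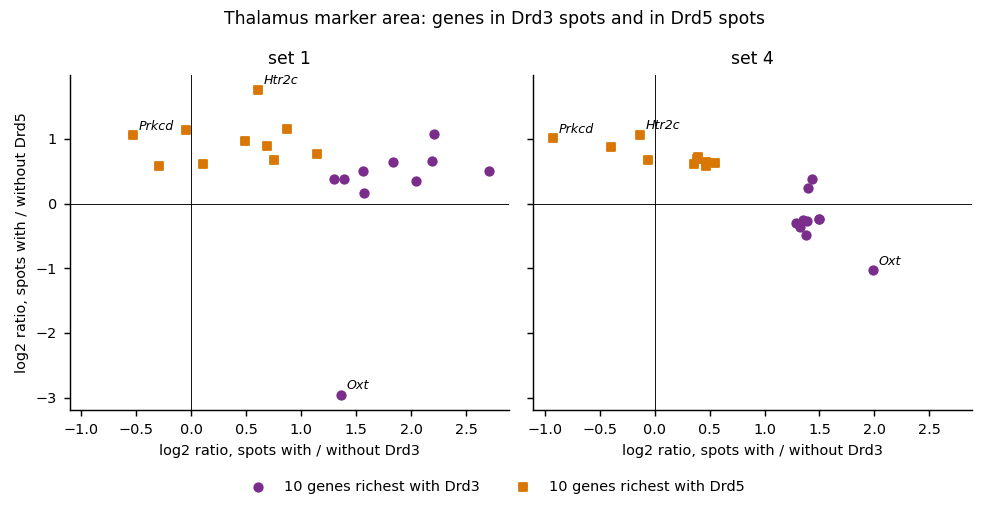
Log2 ratios of CPM + 10 in spots with Drd3 against those without (x axis) and in spots with Drd5 against those without (y axis) in the thalamus marker area of sets 1 and 4, for the 10 genes richest with each. Points chosen for Drd3 lie to the right, points chosen for Drd5 lie above 0, as the choice of genes fixes, and Oxt lies at -2.96 and -1.03 on the Drd5 axis.

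Receptor partners and enzymes of dopamine handling were read from a list of their own. Of 36 genes on that list, 35 had at least 1 CPM over all spots. In the striatum marker area 8 of the 35 were at least 2-fold higher in all 4 sets, where 2.90% of all genes were, and 8 were 2-fold lower, where 8.87% were. The list median log2 ratio was -0.16 there, and -0.12 over all genes. The higher ones were Drd1, Drd2, Gnal, Gng7, Adcy5, Ppp1r1b, Rgs4 and Rgs9, which encode the main dopamine receptors of the striatum, the olfactory-type stimulatory G protein with its gamma subunit, adenylyl cyclase, DARPP-32 and regulators of G protein signalling. Some of them are on the list that names the area. Adcy5 was 6.92 to 9.33 times as high there as in other spots.

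In the layer 2/3 marker area, where Drd4 was high, 1 of the 35 was 2-fold higher in all 4 sets, beside 1.35% of all genes, and 9 were 2-fold lower, beside 6.19%. The higher one was Kcnj6, an inwardly rectifying potassium channel subunit gated by G proteins, at ratios of 2.46, 2.45, 2.36 and 2.17. Drd1 was at 0.0173 to 0.0823 and Drd2 at 0.00702 to 0.0277 times the level of other spots. In the thalamus marker area, where Drd3 and Drd5 were high, 1 of the 35 was 2-fold higher in both sets, beside 2.98% of all genes, and 9 were lower, beside 7.34%. The higher one was Maob, which encodes a dopamine-degrading monoamine oxidase, at 5.79 and 6.57 times the level of other spots. In the cholinergic marker area 2 of the 35 were 2-fold higher in all 4 sets, beside 0.890% of all genes, and 7 were lower, beside 3.91%. Th, the enzyme of dopamine synthesis, was 2.68 to 5.74 times and the vesicular monoamine transporter gene Slc18a2 2.28 to 6.55 times as high as elsewhere. Both were also 2-fold higher in the hypothalamus and ventricle lining areas. Drd1, Drd2, Gng7, Adcy5, Ppp1r1b and Rgs9 were among the lower genes of the layer 2/3, thalamus and cholinergic areas alike. They were also 2-fold lower in the hypothalamus, lateral septum and ventricle lining areas. The other spots of each comparison include the striatum marker area, where all of these genes were 2-fold higher. In the layer 4, 5 and 6 areas 10, 10 and 8 of the 35 were lower, so the lower genes are not particular to areas high in Drd3, Drd4 or Drd5. Over all genes and over the list, the median log2 ratio was -0.13 and -0.09 in layer 2/3, -0.05 and -0.04 in the thalamus area and 0.02 and -0.07 in the cholinergic area.

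Across clusters with at least 30 spots in a set (19 to 22 clusters), the genes most like Drd3 were Dchs2, Ntn1, Isoc1, Arhgap18 and Zfp516, with a median over sets of Pearson r of log2(CPM + 1) of 0.74 to 0.79. For Drd4 they were Rilpl1, Stard8, Egln1, Cxcl12 and Prex1 at 0.66 to 0.73, and for Drd5 Gabarapl2, Ass1, Ache, Impad1 and Cct8 at 0.75 to 0.79. These values describe clusters that share libraries, and the 5 genes were the best of 10175. In Drd5 spots over the whole section 0 of 10175 genes (0%) were at least 2-fold richer in all 4 sets. Ache was also among the 10 genes richest in Drd5 spots of the whole section, at log2 ratios of 0.65, 0.65, 0.77 and 0.61.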

How the data were processed

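The authors deposited 1 table of raw counts per gene and spot, and the submitters' processing notes name Space Ranger and Seurat; settings, genome build and probe set are not given in the sources used here. Levels are CPM of summed counts. The 1 spot under 500 counts was left out. Spots were clustered on 2000 variable genes without the dopamine genes (scaled to 10000 counts, log, centred within sets, 30 principal components, 15 neighbours, Leiden at resolution 0.8; scanpy 1.11.5, leidenalg 0.10.2). A cluster took the marker list with most genes among its 10 leading genes, given 3 list genes at least 2-fold higher and a list median log2 fold of 0.5. Intervals are exact at 95% (Poisson for levels, Clopper-Pearson for shares, conditional binomial for ratios). Probes are not on one scale, so levels of different genes were not compared. Tests of genotype were not run.

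Members and lists were chosen with earlier results of these data known, and the area rule and the areas in which rich genes were sought after seeing the data. Named genes are the list genes, the 10 genes with the largest lowest ratio over sets, and the 5 most alike across clusters; the poorest genes and those of a single set were chosen after their values were seen. A few genes that this rule picks are not reported here. Scripts were tested on simulated data. Alternatives were other clusterings, a per-spot marker score, thinning, TMM and RLE factors (edgeR 4.0.16), and sets left out.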

Additional observations from a re-analysis of the deposited data

How the results depend on the processing

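Values recomputed under an alternative were held against limits of counting error, taken as medians over sets, or against 1.5 times the count. The spread between sets was not used for this. Of these values, 194 stayed within their limits and 39 moved. No median level ratio changed its direction, whereas section levels, shares of spots and counts of genes have no direction to change. Alternatives for rich genes within an area and for the cholinergic list were chosen after seeing the data. Level ratios are log2 medians over sets. Thinned to 20000 counts per spot, the median share of spots with a count went from 6.90% to 4.09% for Drd3, from 5.53% to 2.504% for Drd4 and from 11.2% to 7.28% for Drd5. The Drd3 ventral striatum ratio went from 1.65 to 2.501 without centring. The Drd3 pallidum ratio stayed within its limits but ran from 0.230 to 1.81, so its 2-fold rise (a log2 ratio of 1) was not kept under every alternative. The Drd3 thalamus ratio of 1.94 was 2.46 at resolution 1.2, 1.42 with score areas and 1.46 to 2.53 with sets left out. The Drd5 thalamus ratio of 2.14 was 2.56, 1.83 and 1.87 to 2.54 under the same changes. The Drd5 cholinergic ratio of 1.59 was 1.12 at resolution 0.4 and 1.13 to 1.72 with sets left out. Without set 3 the Drd5 ratio of layer 4 went from -2.69 to -1.20, and the Drd5 striatum ratio of -0.54 ran from -1.22 to -0.09 with sets left out.

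Counts of 2-fold richer genes over the section were 0 and became 10 for Drd4 and 2 for Drd5 with 2 or more counts, 1 for Drd4 with 1 CPM added, and 0 to 1 for Drd4 and 0 to 2 for Drd5 with sets left out. The 5 genes of Drd5 in striatum became 15 with 2 or more counts, 10 with 1 CPM added and 1 with score areas, and 5 to 7 with sets left out, where each time all 5 were among them. Drd3 in the thalamus area went from 27 to 70 with 2 or more counts, 60 with 1 CPM added and 4 at resolution 1.2, and to 34 and 84 without sets 1 and 4, which left a single set. Drd5 there went from 2 to 4 with 1 CPM added, to 1 at either other resolution and with a minimum of 2000 counts, to 0 with score areas, and to 3 to 11 with a set left out. The cholinergic list ratio of Drd5 striatal spots went from 1.59 to 1.26 with score areas, in which cholinergic spots leave the striatum area by construction.

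The cause of these moves was otherwise not tested. An area was not found, and gave no value, in 10 cases: ventral striatum (resolution 0.4, without set 2 or 4), pallidum (resolution 0.4, without set 1), layer 6b (resolution 0.4, no centring, without set 1), layer 4 (resolution 0.4) and meninges (minimum of 2000 counts). No paired analysis was possible because spot names carry no replicate number and match no sample; for the same reason the genotype tests with edgeR and DESeq2 and the removal of each replicate were not run.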

Other observations

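The Pmch and Lhx5-led cluster had its highest Drd3 level in set 4, at 9.82 CPM from 33 counts (6.76 to 13.8), 4.15 times other spots. In set 3 it was at 3.71 CPM from 9 counts, 2.49 times other spots (1.12 to 4.80), and in sets 1 and 2 it was at 1.59 and 3.83 CPM, where the intervals of the ratio held 1. Pmch encodes melanin-concentrating hormone and Lhx5 a LIM-homeobox transcription factor. In set 4, 19 of its spots held Drd3, and 15 of 10181 genes were at least 2-fold richer in them. Ebf2, a transcription factor gene, was at 124 CPM with and 29.7 CPM without Drd3, Peg10 at 308 and 107 CPM, Whrn at 132 and 44.4 CPM and the prohormone convertase gene Pcsk1 at 146 and 55.4 CPM. These genes were chosen after their values were seen and rest on 1 set.

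Drd5 was also raised in 2 smaller areas. In the cluster led by Ctxn3 and Calb2, with 127 spots in set 3 and 1 in set 2, it was at 8.53 CPM (6.35 to 11.2), 2.96 times other spots. No gene of 10043 was 2-fold richer in its 42 Drd5 spots. In the lateral septum marker area it was at 4.53 CPM in set 2 and 5.50 CPM in set 3, 1.65 and 1.83 times other spots. Within the hypothalamus marker area 0 of 10162 genes (0%) were at least 2-fold richer in Drd5 spots in all 4 sets. The largest lowest ratios were those of Zic1 and Zic2, zinc finger transcription factor genes. Zic1 had log2 ratios of 0.69, 0.49, 0.75 and 0.73 in sets 1 to 4, and Zic2 had 0.48, 0.77, 0.56 and 0.81.

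Over whole sections, Drd5 was 1.98, 1.26, 1.65 and 1.69 times as high in spots with Drd3 as in spots without, with intervals above 1 in sets 1, 3 and 4. Drd4 was 0.876, 0.621, 0.806 and 0.466 times as high in Drd3 spots, below 1 beyond counting error in set 4 alone. Drd1 was 2.08 times as high in Drd3 spots in set 2, and 1.02, 1.12 and 1.01 times in sets 1, 3 and 4, where the intervals held 1. Drd2 was 0.481 and 0.443 times as high in Drd5 spots of sets 1 and 4, and 0.900 and 0.956 times in sets 2 and 3. These ratios pool areas with different levels of the genes. Within the striatum marker area Drd2 was 1.06, 1.03, 1.09 and 0.911 times as high in Drd5 spots, above 1 beyond counting error in set 3 alone. In set 2, Drd1 was 1.06 times as high in Drd3 spots of the striatum area (0.841 to 1.31). In the ventral striatum area it was 1.24 times as high (0.985 to 1.57).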
